A study of Mus musculus with 5 samples.

Results

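The non-fibrillar collagens are the collagen chains that do not build the striped fibrils of types I, II, III, V, XI, XXIV and XXVII. They were chosen by symbol: every probe set (the group of array probes that reads one transcript) annotated with a single collagen chain symbol was taken, and the fibrillar types were left out. This gave 7 genes, read by 10 probe sets, among the 2190 genes and 3373 probe sets of the deposited table: Col4a1, Col4a2 and Col4a5 of the basement membrane class, Col6a1 and Col6a2 of the beaded filament class, and Col12a1 and Col16a1 of the fibril-associated class. Of the 34 non-fibrillar chains listed for the search, the other 27 were not analysed here, among them the whole transmembrane class, the multiplexins and the short-chain network collagens.

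Expression was measured in mesenchymal stem cells (MSC, the stromal cells of bone marrow) purified from mouse marrow and grown as primary cultures in Mesencult medium. Total RNA of 5 cultures, each labelled a biological repetition, was hybridised to Affymetrix arrays as biotin-labelled cRNA. In 3 of them MSC were alone, and in 2 MSC had shared a transwell for 48 h with purified T cells activated by anti-CD3 and anti-CD28, at 10 T cells for each MSC. Strain, age, genotype and whether repetitions came from separate animals are not given in the sources used here, so the p-values cover only the spread between these cultures. Whether the 3 cultures of MSC alone also sat in a transwell is not stated either.

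Collagens are trimers of chains wound around each other through repeats of glycine and other residues, and each class assembles into its own structure. Collagen IV forms the sheet-like network of basement membranes, collagen VI assembles into thin beaded microfibrils near cell surfaces, and fibril-associated collagens such as XII and XVI sit on or beside fibrils made by other collagens. All are made in the endoplasmic reticulum by chain-modifying enzymes and chaperones, and MSC and fibroblasts are known as sources of collagen VI and XII.

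Neighbouring genes encode both pairs of partner chains. Col4a1 and Col4a2, whose products join in one trimer, lie head to head on chromosome 8, and the start sites in the RefSeq promoter table (build GRCm38.p6) are placed so that the first 22 bases of each transcript overlap the other. The overlap is shown because both genes fell together. The stretch is chr8:11312801-11312830, the capitals mark the bases from one start site to the other, and the same bases are written on the strand of each gene (minus for Col4a1, plus for Col4a2).
Col4a1: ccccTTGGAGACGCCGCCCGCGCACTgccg
Col4a2: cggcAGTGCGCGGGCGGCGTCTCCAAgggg

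The genes of the collagen VI chains lie on the same strand of chromosome 10, with 2 annotated genes between them, of which 0 are protein-coding. The 250 bases before the outermost start site of each are shown, on the minus strand, because these were the partner chains with the largest falls. They are chr10:76726045-76726294 for Col6a1 and chr10:76623631-76623880 for Col6a2. Capitals mark matches to the motifs searched.
Col6a1: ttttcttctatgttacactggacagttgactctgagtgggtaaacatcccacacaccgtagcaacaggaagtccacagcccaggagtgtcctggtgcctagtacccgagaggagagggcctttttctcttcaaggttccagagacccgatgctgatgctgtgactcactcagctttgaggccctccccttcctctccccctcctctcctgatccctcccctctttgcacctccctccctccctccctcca
Col6a2: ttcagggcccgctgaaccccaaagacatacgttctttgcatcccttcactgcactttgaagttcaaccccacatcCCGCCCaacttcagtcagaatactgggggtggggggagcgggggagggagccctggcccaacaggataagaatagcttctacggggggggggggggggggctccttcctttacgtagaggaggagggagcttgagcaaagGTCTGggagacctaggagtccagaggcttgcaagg

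Promoter windows of 300 bases (250 before to 50 after a start site) were found for 6 of the 7 genes, Col12a1 being the exception, and were searched on both strands. A match is only a match of letters, different motifs were allowed to overlap, and for Col6a2, which has 2 windows, a match in either counted. The GC box GGGCGG was found in 5 of the 6 genes, against 35.7% of the 32851 windows of all genes. The windows of Col4a1 and Col4a2 overlap, and the only match of Col4a1 is the same bases as a match of Col4a2. The windows of the 6 genes held between 52.7% (Col4a5) and 74.3% (Col16a1) G and C, against a median of 52.7% over all windows. In the Col6a2 sequence the GC box appears as its complement, the first capitals. The CCAAT box was found in 4 of 6 (Col4a1, Col4a2, Col4a5 and Col16a1), against 37.4% of all windows. CAGAC, a SMAD-binding sequence and the second capitals of Col6a2, was found in 2 of 6 (Col4a2 and Col6a2), against 49.6% of all windows. No window of the 6 genes held TATAAA (13.6% of all windows), the STAT sequence TTCNNNGAA (8.30%) or the core sequence of the interferon-stimulated response element (3.44%). These counts say nothing about binding.

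All 7 genes were lower after co-culture. The deposited values are log2 probe set values made with RMA, so 1 unit is a 2-fold difference. Log2 differences are co-culture minus MSC alone, and a minus sign means lower in co-culture. All 10 probe sets passed limma's adjusted p of 0.05 in the lower direction, as did 51.3% of the probe sets of the table. In the higher direction 0 of 10 passed (also 0 at an unadjusted p under 0.05), whereas 48.7% of the table did. The deposited table appears to be already selected on this comparison: in 100% of its probe sets the arrays of the groups do not overlap, so passing the threshold says little about the collagens, and the p-values are likely too small. Genes called measured below are those in this table, so counts of them may miss genes that changed little. The size of the falls is the more informative value. At least 2-fold lower were 10 of 10 collagen probe sets, against 35.3% of the table, and at least 8-fold lower were 5 of 10, against 1.99%. Those 5 were both probe sets of Col6a2, both of Col12a1 and that of Col6a1, so some read the same gene. Had 15 times as many probe sets been tested, 9 of 10 would have passed, against 6.23% of the table; the exception was Col4a1 (adjusted p 0.0712 in limma). In these bulk cultures, fewer cells that make a transcript and less transcript per cell cannot be told apart.

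**Figure D1:**
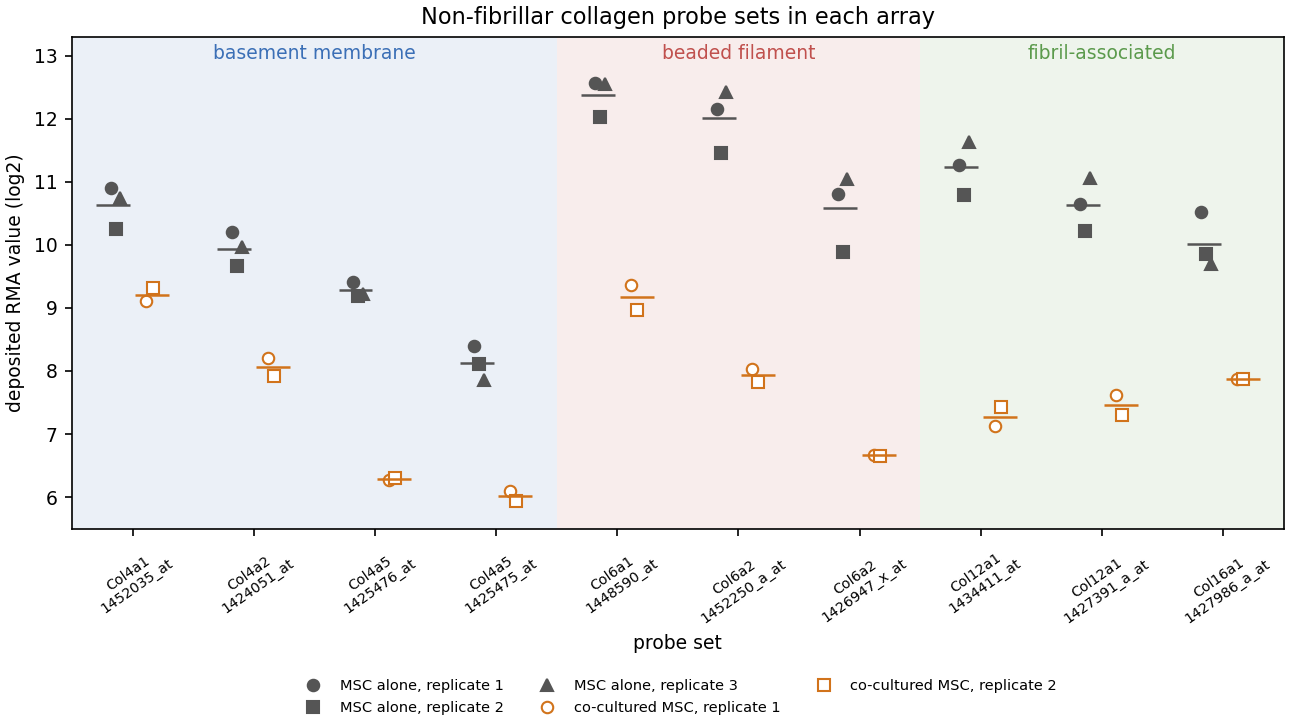
Deposited log2 values (vertical axis) of the 10 probe sets of non-fibrillar collagens in each array, with filled grey symbols for the 3 arrays of MSC alone, open orange symbols for the 2 arrays of co-cultured MSC, and horizontal lines for group means. Every orange symbol lies under every grey symbol of its probe set, and MSC replicate 2 (square) is the lowest grey symbol in 8 of 10.

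In the beaded filament class both measured chains of collagen VI fell. Col6a2 (probe set 1452250_a_at) stood at 12.16, 11.45 and 12.43 in MSC replicates 1, 2 and 3, and at 8.04 and 7.83 in co-culture replicates 1 and 2. The lowest array of MSC alone was 3.42 above the highest co-culture array, a wider gap than the range of 0.976 among the arrays of MSC alone. The difference was -4.08 ± 0.31 (limma's moderated SE, n = 3 and n = 2; adjusted p 0.00076 in limma), or 16.9-fold lower. Only 19 of the 3373 probe sets of the table, itself included, fell as much.

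Col6a1, encoding a chain that assembles with the Col6a2 product, was read by 1 probe set (1448590_at). Its values were 12.57, 12.02 and 12.55 in MSC alone and 9.36 and 8.97 in co-culture. The difference was -3.21 ± 0.25 (SE; adjusted p 0.000798 in limma), or 9.26-fold lower, with 46 probe sets falling as much. The other probe set of Col6a2 (1426947_x_at), of a kind that can bind related transcripts, stood at 10.81, 9.89 and 11.05 against 6.68 and 6.65. Its difference, -3.92, was within 0.159 of that of the first. Col6a3, encoding the long chain needed for the trimer, and Col6a4, Col6a5 and Col6a6 were not analysed here.

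In the fibril-associated class the fall of Col12a1 was close to that of Col6a2. Col12a1, encoding a large collagen of the surface of type I fibrils, stood at 11.27, 10.79 and 11.63 in MSC alone and at 7.12 and 7.42 in co-culture (probe set 1434411_at). The difference was -3.96 ± 0.28 (SE; adjusted p 0.000647 in limma), or 15.6-fold lower, and 23 probe sets fell as much. Its other probe set, 1427391_a_at, stood at 10.64, 10.21 and 11.06 against 7.62 and 7.30 and fell less, by 3.18 on the log2 scale or 9.06-fold.

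Col16a1, encoding another fibril-associated collagen, also reported near basement membranes, stood at 10.51, 9.85 and 9.69 in MSC alone and at 7.88 and 7.87 in co-culture. The co-culture arrays nearly coincided, while MSC replicate 1 stood above the other MSC arrays. The difference was -2.15 ± 0.28 (SE; adjusted p 0.00271 in limma), or 4.42-fold lower, and 6.61% of the probe sets of the table fell as much.

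The 3 measured chains of collagen IV, in the basement membrane class, fell by unequal amounts. Col4a5, whose product belongs to a collagen IV trimer best known from the kidney filter, stood at 9.42, 9.19 and 9.22 in MSC alone and at 6.28 and 6.30 in co-culture (probe set 1425476_at), with a range among the arrays of MSC alone of 0.226. The difference was -2.99 ± 0.17 (SE; adjusted p 0.000327 in limma), or 7.94-fold lower. Its other probe set, 1425475_at, stood at 8.39, 8.12 and 7.86 against 6.10 and 5.95 and fell by 2.10 on the log2 scale, or 4.29-fold.

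Col4a2 and Col4a1 encode the chains of the collagen IV found in nearly all basement membranes. Col4a2 stood at 10.20, 9.66 and 9.96 in MSC alone and at 8.21 and 7.92 in co-culture, a difference of -1.87 ± 0.23 (SE; adjusted p 0.00227 in limma), or 3.67-fold lower. Col4a1 stood at 10.91, 10.25 and 10.74 in MSC alone and at 9.12 and 9.31 in co-culture, a difference of -1.42 ± 0.25 (SE; adjusted p 0.00475 in limma), or 2.67-fold lower. This was the smallest fall among the 7 genes, and 19.5% of the probe sets of the table fell as much.

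By class, with each gene represented by its probe set of highest mean, the median difference was -1.87 for the 3 basement membrane genes, -3.65 for the 2 beaded filament genes and -3.05 for the 2 fibril-associated genes. Over all 7 genes the median was -2.99, against -0.61 over all 2190 genes and -1.22 over the 1133 genes that were lower in co-culture (51.7% of all). With each array centred on its median, where the co-culture medians were on average -0.164 from those of MSC alone, the 7 differences ran from -3.92 (Col6a2) to -1.26 (Col4a1). The same centring changed the split of probe sets changed at least 2-fold from 1189 lower and 926 higher to 961 lower and 1167 higher, and left all 10 collagen probe sets lower. No left-out array moved any of the 10 differences by as much as 1.5 times in fold.

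**Figure D2:**
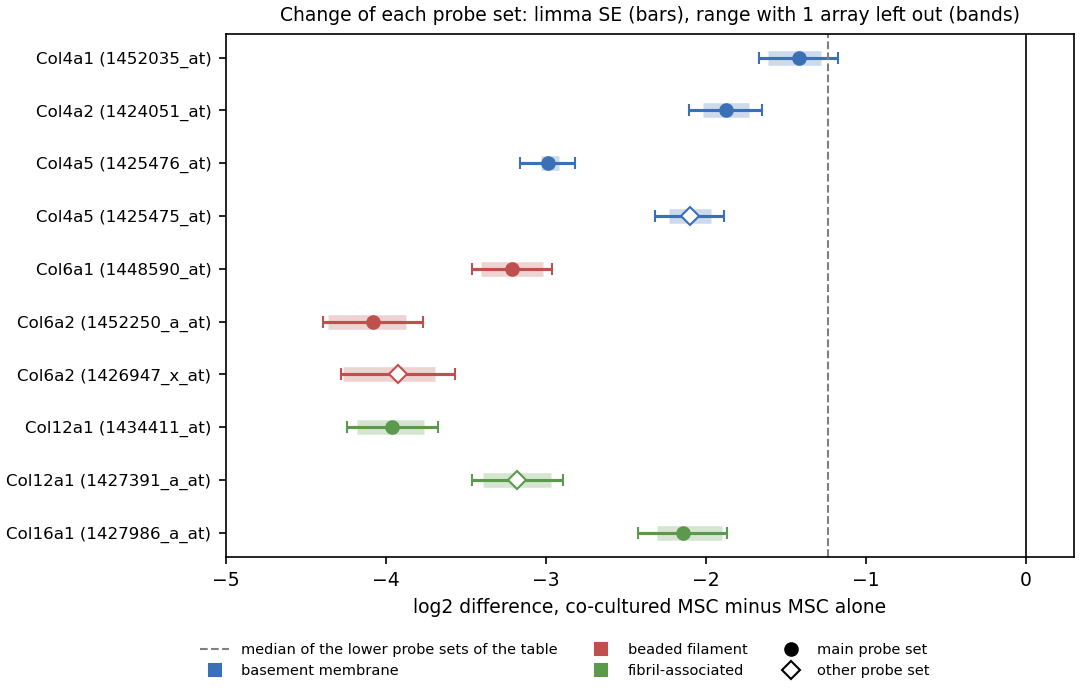
Log2 differences (co-culture minus MSC alone, horizontal axis) of the 10 probe sets, coloured by class, with limma's SE as bars and the range obtained by leaving out each array in turn as pale bands; filled circles are each gene's main probe set and open diamonds the other. All lie left of 0, from -4.08 (Col6a2) to -1.42 (Col4a1), and the second probe sets of Col4a5 and Col12a1 lie to the right of the first.

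The order of the falls, from largest to smallest, was Col6a2, Col12a1, Col6a1, Col4a5, Col16a1, Col4a2 and Col4a1. To compare falls within arrays, the gap between 2 genes was taken in each array and its change between groups examined for all 21 pairs. The gene with the larger fall was always subtracted, so the mean change was above 0 by construction. An exact permutation test of 3 arrays against 2 cannot give a two-sided p below 0.2, so no pair could pass. Among neighbours in the order, the gaps of Col6a2 and Col12a1 overlapped between groups (change 0.12 ± 0.21, SE of the difference between group means; exact two-sided p 0.8), as did those of Col6a1 and Col4a5 (0.22 ± 0.24) and of Col16a1 and Col4a2 (0.27 ± 0.25). The falls of these neighbours did not differ beyond the spread between arrays. The gaps did not overlap for Col12a1 and Col6a1, for Col4a5 and Col16a1 or for Col4a2 and Col4a1.

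Partner chains fell unequally. The value of Col6a1 minus that of Col6a2 was 0.405, 0.569 and 0.123 in MSC alone and 1.33 and 1.15 in co-culture, a change of 0.87 ± 0.18 (SE; exact two-sided permutation p 0.2, and 0.233 after adjustment over the 21 pairs). For Col4a1 minus Col4a2, the values were 0.704, 0.586 and 0.781 in MSC alone and 0.904 and 1.39 in co-culture, a change of 0.46 ± 0.19 with the same p-values. In both pairs the gaps of the groups did not overlap, and the direction of the change was set by the order of subtraction. Such a change shows unequal change of the probe sets, and different probe sets of the same gene also differed, by 0.889 for Col4a5, 0.78 for Col12a1 and 0.159 for Col6a2. The unequal falls of Col6a1 and Col6a2, and of Col4a1 and Col4a2, were therefore no larger than the largest difference between probe sets of a single gene.

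**Figure D3:**
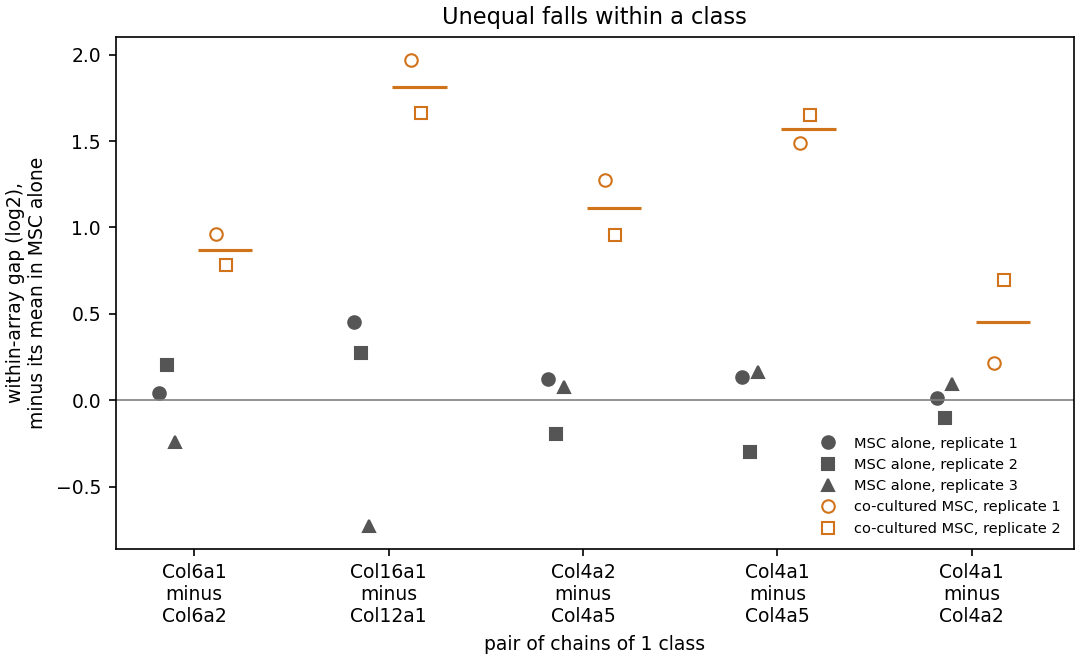
Within-array gap between 2 genes of the same class on the log2 scale, minus its mean in MSC alone (vertical axis), for the 5 such pairs, with filled grey symbols for the arrays of MSC alone, open orange symbols for the co-culture arrays and orange lines for the co-culture means. The gene with the larger fall is subtracted, so the upward direction of the mean change is by construction. The arrays of the groups do not overlap in any pair. The change is smallest for Col4a1 minus Col4a2 (0.46) and largest for Col16a1 minus Col12a1 (1.81), where the arrays of MSC alone also spread most.

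In MSC alone, replicate 2 was the lowest of the 3 arrays in 8 of the 10 probe sets (6 of the 7 genes by their main probe set), and MSC replicate 3 in the other 2, one of Col4a5 and that of Col16a1. Among all probe sets lower in co-culture, replicate 2 was the lowest array of MSC alone in 53.0% and replicate 3 in 31.1%, and the difference from these shares was not tested. The highest array differed between genes: it was replicate 1 for Col4a1 and Col16a1 and replicate 3 for Col6a2 and Col12a1. In co-culture, replicate 2 was the lower array in 7 of 10, against 77.5% of the probe sets lower in co-culture. The collagen shares of the co-culture arrays therefore lay near those of the table. The lowest co-culture value among the 10 probe sets was 5.95, well above the lowest value of the table, 2.62; RMA gives no detection call.

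Likeness to other genes was measured as the root mean square difference of log2 profiles over the 5 arrays, each profile centred on its own mean. The 5 genes nearest to Col6a2 were Edil3, which encodes a secreted integrin-binding protein (0.153), Irs1, an adaptor of the insulin receptor (0.155), Col12a1 (0.187), Sertad4 (0.269) and Col1a1 (0.338). Nearest to Col12a1 were the same genes with Col6a2 in place of itself: Edil3 (0.115), Irs1 (0.151), Col6a2 (0.187), Col1a1 (0.265) and Sertad4 (0.322). Their own differences ran from -3.57 (Sertad4) to -4.08 (Irs1). Every gene of the table separates the groups, so profiles with falls of like size lie near each other by construction.

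The fibrillar collagens in the table fell too, 6 of 6 measured of 11 listed (51.7% of all genes were lower). Their median over main probe sets was -3.48. Each other probe set of these genes fell more than the main one, as in Col1a2 (-5.26 and -3.51 against -2.02) and Col3a1 (-6.35 against -4.67). The other probe sets of Col4a5, Col6a2 and Col12a1 instead fell less than the main ones. The -3.48 here and the -2.99 of the non-fibrillar genes therefore depend on the probe sets used. Col1a1, whose product forms the fibrils that collagen XII binds, had a difference of -3.94 in its main probe set and -5.13 in the other, beside -3.96 and -3.18 for Col12a1, so how near the genes lie depends on the probe set. The difference between the fibrillar and non-fibrillar genes was not tested.

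Genes that make and export collagen were counted from lists. Of 22 genes for chain modification and folding in the endoplasmic reticulum, 10 were in the table and all 10 fell, with a median of -1.87. Of all genes in the table, 51.7% were lower, and the median of those lower genes was -1.22. The largest falls were those of P4ha2, a prolyl 4-hydroxylase subunit (-2.85 ± 0.22), Fkbp14, a chaperone with prolyl isomerase activity (-2.57 ± 0.53), Creb3l1, a transcription factor of collagen-secreting cells (-2.55 ± 0.36), and P4ha3, another prolyl 4-hydroxylase subunit (-2.51 ± 0.25; all SE, with adjusted p between 0.00076 and 0.00611 in limma). P4ha2 stood at 11.83, 11.76 and 12.26 in MSC alone and at 9.02 and 9.17 in co-culture. Serpinh1, encoding the collagen chaperone HSP47 and outside the rule for named genes, fell by 1.33 on the log2 scale.

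Of 12 collagen secretion genes, 5 were in the table and all 5 fell (51.7% of all genes were lower), with a median of -1.18, no further from 0 than the -1.22 of all lower genes. The largest falls were those of Vipas39, Sar1a and Trappc2 (-1.23, -1.19 and -1.18), and Sec24d, a cargo-binding subunit of the COPII coat, fell by 1.07. Of 15 genes for procollagen processing and cross-linking, 4 were in the table and all 4 fell (51.7% of all genes were lower), with a median of -1.49, near the -1.22 of all lower genes. The differences were -1.98 and -1.52 for Lox and Loxl1, which encode cross-linking oxidases, -1.47 for Pcolce, an enhancer of propeptide removal, and -1.18 for Loxl4. Col6a1, Col6a2, Col12a1, Col4a5 and Col16a1 fell further than any of these secretion, processing and cross-linking genes. Lox fell further than Col4a2 and Col4a1, and Loxl1 and Pcolce further than Col4a1. These differences were not tested.

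Partners of basement membranes went both ways. Of 30 listed, 7 were in the table. Of these, 5 fell and 2 rose, where 51.7% of all genes were lower. Their median was -1.14, against -0.61 over all genes. Npnt, an integrin ligand, had a difference of -3.61, or -2.74 without MSC replicate 3, where it was highest. Sparc, encoding a collagen-binding protein, fell by 2.11 on the log2 scale, and the differences of Fbln2 and of Hspg2, which encodes perlecan, were -1.67 and -1.14. Agrn, encoding agrin, stood at 9.03, 8.90 and 8.83 in MSC alone and at 9.54 and 9.84 in co-culture, a rise of 0.77 ± 0.19 (SE; adjusted p 0.00827 in limma). Lamc1, the laminin chain gene, rose by 0.70 ± 0.18 (adjusted p 0.0103 in limma). Both rose while all 3 measured collagen IV chains fell; Agrn and Lamc1 were named after their values were seen.

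Of 19 partners of collagen VI and of fibril surfaces, 4 were in the table and all 4 fell (51.7% of all genes were lower), with a median of -3.69. The differences were -6.51 and -5.21 for Aspn and Ogn, which encode small leucine-rich proteoglycans, -2.17 for Matn2, which encodes a matrilin that binds collagen VI, and -1.22 for Mfap2. Aspn stood at 3.13 and 3.08 in co-culture, near the lowest value of the table (2.62, read by its other probe set), so its fall may be larger than measured. The falls of Ogn and Matn2 depended on the co-culture arrays: without co-culture replicate 1 the differences were -6.65 and -2.83, and without replicate 2 they were -3.78 and -1.51. Without MSC replicate 2 the difference of Aspn was -7.25, and without MSC replicate 3 it was -5.55. Of 18 collagen-cleaving proteinases and their regulators 2 were in the table, and both fell, as did 51.7% of all genes. The differences were -3.19 for Mmp16 and -0.84 for Adam10. Of 15 collagen receptors 0 were in the table and they were not analysed here.

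**Figure D4:**
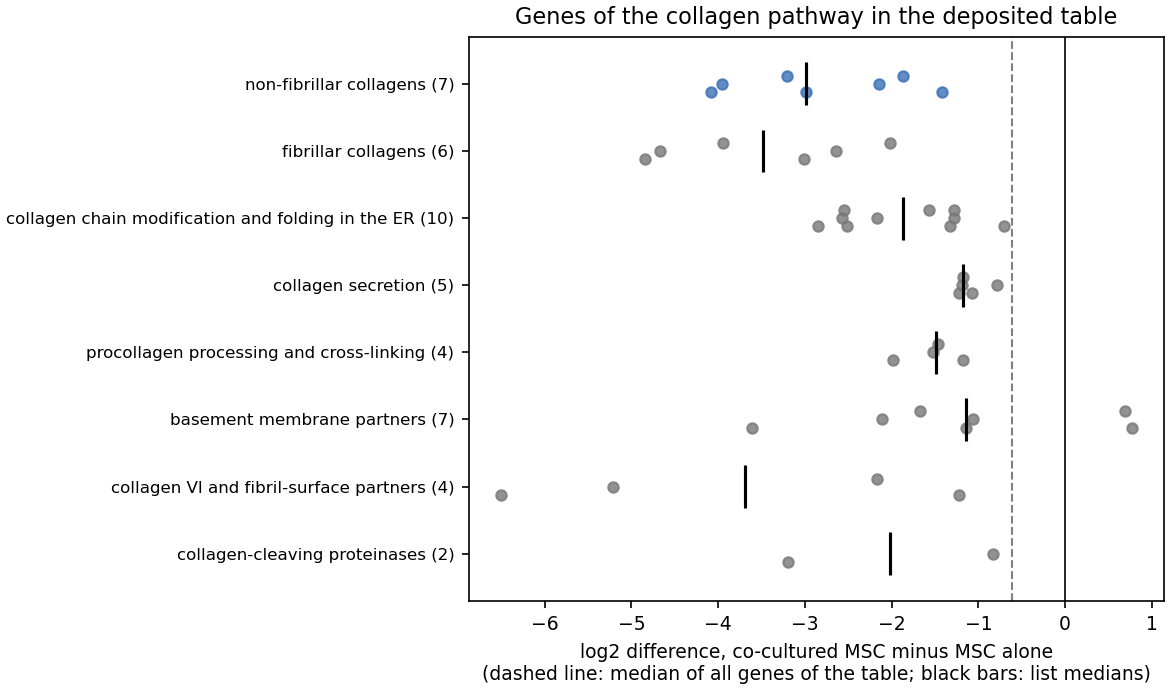
Log2 differences (co-culture minus MSC alone, horizontal axis) of the measured genes of each list, 1 point a gene, with the number of genes in brackets, list medians as black bars and the median of all genes (-0.61) as a dashed line. The non-fibrillar collagens (blue, median -2.99) lie left of the secretion genes (median -1.18), and Agrn and Lamc1 are the points right of 0.

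The label of the cells was checked against marker lists. Of 18 MSC markers 7 were in the table, where 51.7% of all genes were lower. Pdgfrb, Cxcl12, Cd44 and Alcam fell and Pdgfra, Vcam1 and Kitl rose, with a median difference of -0.86. Summed over these 7 on the linear scale, the level was between 12.29 and 12.66 (log2) in MSC alone and 13.00 and 13.17 in co-culture, a sum led there by Vcam1 (mean 12.14) and Pdgfra (11.08). Of 19 macrophage and monocyte markers 2 were in the table, Mpeg1 and Ctss, and both rose, as did 48.7% of the probe sets of the table. Their summed level was between 4.89 and 5.35 (log2) in MSC alone and 9.63 and 8.99 in co-culture. The other 17, Ptprc, Csf1r and Adgre1 among them, were not analysed here. Whether macrophages or monocytes were in the cultures, and any part of theirs in the falls of the collagens, was not tested. Of 16 T cell, 10 endothelial, 7 adipocyte, 8 osteoblast and 7 chondrocyte markers 0 were in the table, and those cell types were not analysed here.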

How the data were processed

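The authors deposited log2 values, 1 for each probe set and array, and the submitters' processing notes name RMA. Its version, and the rule that left 3373 probe sets (values 2.62 to 14.59), are not given in the sources used here. Array medians were between 7.42 and 7.64. Probe sets were named from the platform annotation table: 3013 had 1 symbol, 69 several and 291 none, and 3010 Entrez identifiers matched RefSeq (GRCm38.p6), which changed 0 symbols. Where a gene had several probe sets, that of highest mean over the arrays stood for it.

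The test was limma 3.58.1 (R 4.3.3; lmFit and eBayes, all 5 arrays, no covariate or filter, two-sided), with Benjamini-Hochberg adjustment over all 3373 probe sets and a threshold of 0.05. It was also run on simulated data with most probe sets unchanged and no selection, unlike the deposited table. That run therefore does not vouch for the p-values given here. Single gaps used exact permutation (SciPy 1.17.1). The members, classes and lists were chosen with earlier results of these data known, so no list was given a p. Every member was named, with up to 4 genes of each pathway list by absolute difference and the 5 genes nearest in profile to Col6a2 and Col12a1. Motif sequences and sequences shown come from RefSeq tables. Alternatives tried were array centring, no moderation, a trended prior, no dim probe sets, more tests, a replicate block, averaged probe sets, fewer probe set kinds and each array left out. The number of arrays limits the precision.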

Additional observations from a re-analysis of the deposited data

How the results depend on the processing

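All 10 collagen probe sets stayed lower and past the threshold in limma with centred arrays, no moderation, a trended prior and each array left out (leaving out a co-culture array assumes that the other varies like the MSC arrays). All 7 genes kept their direction in every alternative run, with adjusted p up to 0.031 in those that keep the number of tests. With 15 times as many tests Col4a1 (-1.42) no longer passed. In that setting 6.23% of the probe sets of the table passed in the lower direction. Lower genes that passed were 5 of 6 fibrillar collagens and 3 of 10 for chain modification and folding. For collagen VI and fibril-surface partners 1 of 4 passed. The count was 0 for secretion, processing and cross-linking, basement membrane partners and proteinases (5, 4, 5 and 2 at an unadjusted p under 0.05). Differences of these small lists from the share of the table were not tested. Without the dimmest 25% of probe sets, 1 of the 2 proteinase genes was left to test and passed. With averaged probe sets the median of the 7 genes moved from -2.99 to -2.54, the values of Col4a5, the middle gene in both settings, whose second probe set fell less.

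Repetition numbers 1 and 2 occur in both groups, but the labels do not say that they mark shared material. Deviations from the group means correlated over probe sets at 0.221 for number 1 and 0.32 for number 2. The deviations of 2 co-culture arrays mirror each other, so each MSC array gives the same value with opposite sign for the other one. MSC replicate 3, without a partner number, gave 0.106 and -0.106 with co-culture replicates 1 and 2. The 2 pairs are too few to show pairing. With the number as a block all 10 probe sets passed, Col6a2 differed by -3.88 (adjusted p 0.000232 in limma) and no call changed. MSC replicate 3 is alone in its block and adds nothing to the difference, which was also -3.88 with that array left out. The block leaves less to estimate the spread of a probe set, so its p-values lean on the spread of the other probe sets. Without detection calls, low values limit the size of a fall.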
